A study of Homo sapiens with 6 samples.

Results

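MHC class I antigen presentation was followed through 9 genes on one-color microarrays of oral squamous cell carcinoma (OSCC) cells. These are the heavy chain genes HLA-B, HLA-C, HLA-E and HLA-F, the light chain gene B2M, the peptide transporter genes TAP1 and TAP2, and the immunoproteasome genes PSMB8 and PSMB9. They were chosen by name for their place in the pathway, with earlier results of these data known, and every probe whose gene name in the files is one of the 9 was taken, which gave 14 probes for 9 of 36337 gene names. Of these, 13 passed the filter on dim signal described with the processing, each of them well above background on all 6 arrays. The fourteenth, a second TAP2 probe assigned to the transcript NM_018833, was well above background on the 2 KON arrays alone and was not tested.

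HSC-3, KON and Ca9-22, the 3 lines used, are established lines from human OSCC. Each was transfected with siDLEU1-2, a small interfering RNA against the long noncoding RNA DLEU1, or with a negative control siRNA (siCtrl), and RNA was taken after 72 h. One array was hybridized per line and siRNA, so the knockdown has no replicates besides the 3 lines, and no error can be given for the change in a single line. A single siRNA stands for the knockdown, so that a change after loss of DLEU1 and a change particular to this siRNA cannot be told apart. The arrays measure bulk RNA, in which fewer cells of a type and less RNA per cell cannot be told apart.

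Class I molecules carry peptides from inside the cell to its surface, where CD8+ T cells and natural killer (NK) cells read them. Cytosolic proteins are cut by the proteasome, in which the interferon-inducible subunits encoded by PSMB8 and PSMB9 can replace constitutive ones. The peptides are pumped into the endoplasmic reticulum by the TAP1 and TAP2 dimer, trimmed by ERAP1 and ERAP2, and loaded onto a heavy chain paired with beta-2-microglobulin with the help of tapasin (TAPBP), calreticulin and PDIA3. Loss of these genes is a known route by which carcinomas escape T cells, and interferon-gamma induces most of them through JAK1, JAK2 and IRF1 and through the transactivator NLRC5.

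DLEU1 fell in every line, by 10.8-fold (Ca9-22), 12.4-fold (KON) and 17.1-fold (HSC-3). Squamous markers such as SFN and CDH1 were well above background on all arrays, while KRT14 was low in Ca9-22 on 2 of its 3 probes and TP63 was not well above background in Ca9-22 after siDLEU1-2. Several of these markers changed with the siRNA, with CDH1 called higher (mean log2 fold change 2.92, adjusted p = 0.0227) and TP63 (-2.46, adjusted p = 0.0227), KRT6A (-1.33, adjusted p = 0.0247) and SFN (-0.81, adjusted p = 0.0470 from limma) called lower, and EPCAM, KRT5, KRT14 and KRT17 not called. The leukocyte marker CD14 was bright in HSC-3. All PTPRC probes were below the filter, as were the CD3E probe and the probes of the fibroblast genes COL1A2, COL3A1 and LUM, while the endothelial genes CDH5 and VWF had a probe kept and were not called. COL1A1, the fibroblast gene with a probe kept, was called higher (1.45, adjusted p = 0.0423 from limma). Of 19956 probes kept, limma called 1697 (8.5%) at an adjusted p below 0.05, and 874 (4.38%) changed more than 2-fold in all 3 lines. With 1 line left out, limma called 0 probes without HSC-3, 0 without KON and 244 without Ca9-22, in fits with 1 residual degree of freedom in place of 2.

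Levels are given as the log2 of the processed signal minus the 75th percentile of its array, so that a value of 0 is the 75th percentile of the array's probes and 1 unit is a 2-fold difference. Levels of different probes are not compared, since probes differ in how brightly they bind. A fold change is siDLEU1-2 over siCtrl within a line, and a gene with several probes is led by the one with the highest mean level.

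After siDLEU1-2, none of the 13 probes was called by limma, against 8.5% of all probes kept, and none had an unadjusted p below 0.05. The smallest adjusted p was 0.213, for PSMB8. No member was over 2-fold in all 3 lines, against 4.38% of all probes kept. The changes were small and close together for the heavy chains and B2M, and wide apart between lines for the transporter and immunoproteasome genes. Among the 9 probes of the heavy chains and B2M, no change in any line exceeded 1.67-fold, whereas among the 4 probes of TAP1, TAP2, PSMB8 and PSMB9 the largest was 2.95-fold.

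**Figure D1:**
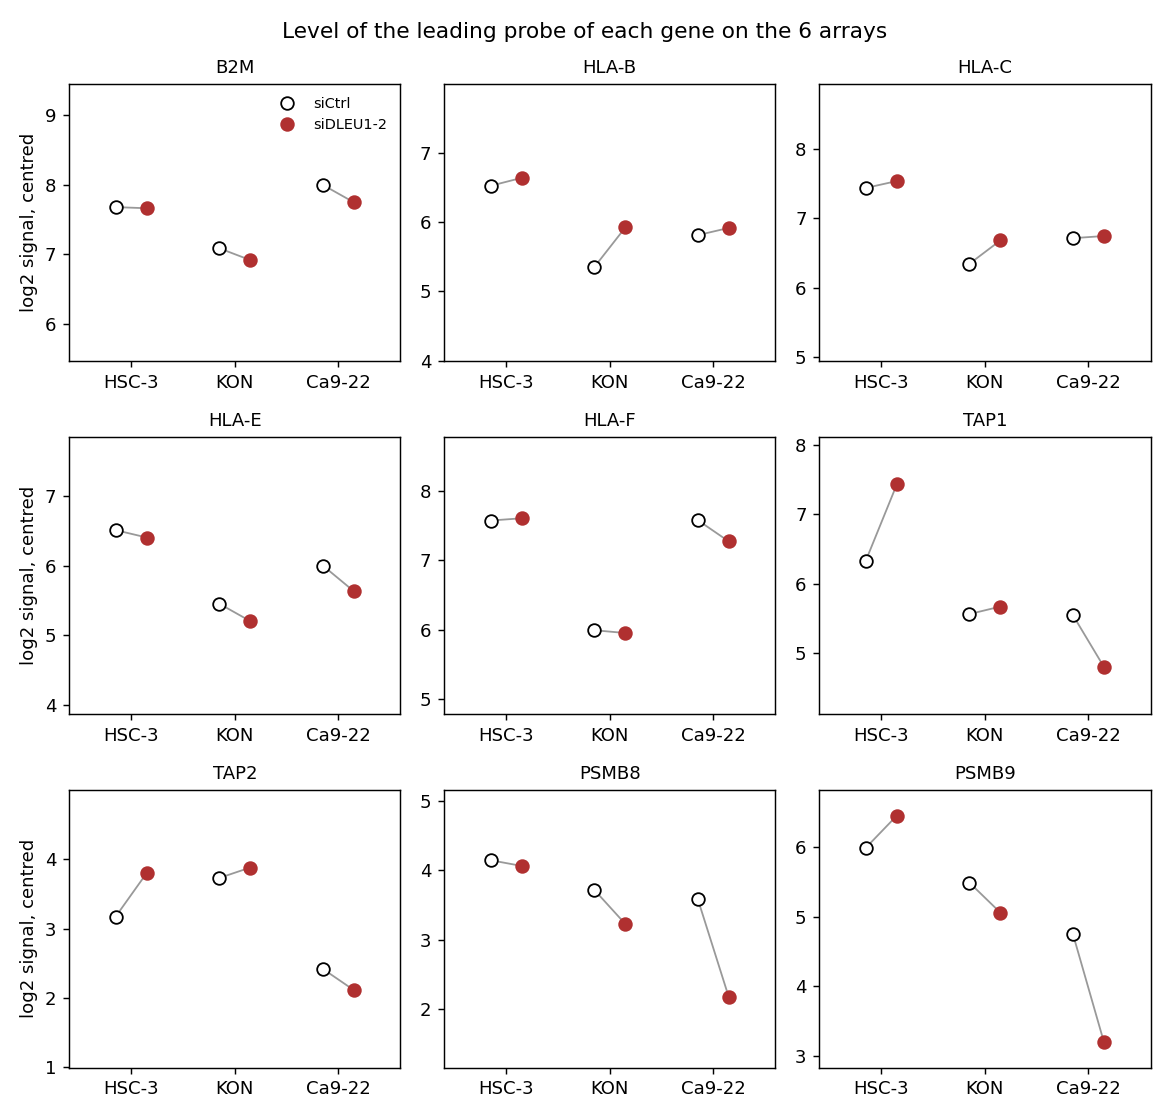
Level of the leading probe of each of the 9 genes on the 6 arrays (y axis, log2 signal centered on the 75th percentile of the array, each panel spanning the same 4 units) by cell line (x axis), with open circles for siCtrl, filled circles for siDLEU1-2 and 1 array per point. Among B2M and the heavy chain genes the widest gap between the circles of a line is that of HLA-B in KON (0.57), TAP1, TAP2 and PSMB9 are higher after siDLEU1-2 in HSC-3 and lower in Ca9-22, and the widest gaps of all are those of PSMB9 (-1.56) and PSMB8 (-1.42) in Ca9-22.

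B2M encodes the light chain that every class I heavy chain shown here pairs with. Its 60-base probe lies in coding sequence at chr15:45007773-45007832 of hg19 (plus strand, transcript NM_004048) and is shown because it is printed in up to 10 spots per array, which gives a measure of error within an array.
B2M: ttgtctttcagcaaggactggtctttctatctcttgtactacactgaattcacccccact

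The B2M level was 7.68 (siCtrl) and 7.66 (siDLEU1-2) in HSC-3, with 7.09 and 6.91 in KON, and with 8.0 and 7.75 in Ca9-22. It was lower after siDLEU1-2 in each line, by at most 1.19-fold, and KON lay below both other lines by more than the siRNAs differed in any line. The SD of its spots within an array was between 0.037 and 0.057 on the log2 scale. Its log2 fold change ran from -0.25 (Ca9-22) through -0.17 (KON) to -0.02 (HSC-3), and the mean was -0.15 ± 0.12 (SD over the 3 lines) with a 95% interval from -0.51 to 0.22 (adjusted p = 0.531 from limma). The interval takes in no change and excludes a mean fall of 2-fold.

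The classical heavy chains HLA-B and HLA-C present peptides to CD8+ T cells and, through other sites, engage receptors of NK cells. HLA-B had 3 probes, and the leading one, at chr6:31321663-31321722 of hg19 (minus strand, NM_005514), had a level of 6.52 (siCtrl) and 6.64 (siDLEU1-2) in HSC-3, with 5.35 and 5.92 in KON, and with 5.81 and 5.92 in Ca9-22. It was higher after siDLEU1-2 in every line, by 1.49-fold in KON and by less than 1.10-fold elsewhere. The mean log2 fold change was 0.26 ± 0.27 (SD over 3 lines), with an interval from -0.17 to 0.70 and an adjusted p of 0.353 from limma. The other HLA-B probes had means of 0.08 and -0.09 (adjusted p = 0.769 and 0.744 from limma), and both were lower in HSC-3 and Ca9-22 and higher in KON. The direction in HSC-3 and Ca9-22 therefore differed between probes of this gene, and on the leading probe it turned in HSC-3 with quantile normalization (-0.013).

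For HLA-C, the leading probe is assigned to the transcript M26429, and its level was 7.44 (siCtrl) and 7.54 (siDLEU1-2) in HSC-3, with 6.34 and 6.68 in KON, and with 6.71 and 6.75 in Ca9-22. The second HLA-C probe, at chr6:31236617-31236676 and assigned to NM_001243042, had 7.30 and 7.27 in HSC-3, with 5.95 and 6.27 in KON, and with 6.91 and 6.87 in Ca9-22. KON gave the highest fold change for both, 1.26-fold and 1.24-fold, and the other lines differed by less than 1.10-fold, with a direction on the leading probe that turned with quantile normalization in both. Their mean log2 fold changes were 0.16 (interval -0.22 to 0.53, adjusted p = 0.521) and 0.08 (interval -0.32 to 0.48, adjusted p = 0.766 from limma).

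Of these 5 HLA-B and HLA-C probes, 3 are not separate measurements of their genes. The files place the leading HLA-C probe at chr6:31321644-31321703 of hg19, overlapping the stretch that the leading and second HLA-B probes occupy, and it shares an unbroken run of 41 bases with the leading HLA-B probe. The leading and second HLA-B probes overlap by 50 bases and are identical in 49 of them, with the single substitution G37T counted from the 5′ end of the leading probe. The 21 bases around it are shown for these probes, with the differing base in capitals, because their difference between cell lines also differed.
HLA-B, leading probe: attcctggaaGttgagagagc
HLA-B, second probe: attcctggaaTttgagagagc

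The leading probes of HLA-B and HLA-C and the second HLA-B probe thus partly read the same sequence, and binding of RNA from 1 gene by a probe of the other was not tested. The third HLA-B probe, the second HLA-C probe and the probes of HLA-E and HLA-F shared no run of more than 10 bases with any other class I heavy chain probe examined.

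The nonclassical heavy chains HLA-E and HLA-F did not pass the test either. HLA-E, which presents signal peptides of other heavy chains to the NK receptor CD94/NKG2A, was measured at chr6:30460729-30460788 (plus strand, NM_005516) and had a level of 6.52 (siCtrl) and 6.41 (siDLEU1-2) in HSC-3, with 5.46 and 5.20 in KON, and with 6.01 and 5.64 in Ca9-22. It was lower in each line, by 1.08-fold, 1.19-fold and 1.29-fold in that order, and the mean log2 fold change was -0.24 ± 0.13 (SD over 3 lines), with an interval from -0.61 to 0.12 and an adjusted p of 0.318 from limma.

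HLA-F, whose product can reach the surface without peptide, had 2 probes in coding exons. The leading one, at chr6:29693280-29693338 of hg19 (plus strand, NM_018950), is shown because it gave the clearest difference between KON and both other lines.
HLA-F: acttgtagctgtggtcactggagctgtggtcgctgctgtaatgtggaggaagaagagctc

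Its level was 7.58 (siCtrl) and 7.61 (siDLEU1-2) in HSC-3, with 6.0 and 5.96 in KON, and with 7.58 and 7.27 in Ca9-22. The second, dimmer probe (chr6:29692114-29692173, NM_001098478) had 3.04 and 2.88, 1.42 and 1.14, and 3.07 and 2.33 in these lines. Both were lowest after siDLEU1-2 relative to siCtrl in Ca9-22, where the fall was 1.24-fold on the leading probe and 1.67-fold on the other. The leading probe's small difference in HSC-3 turned to lower with quantile normalization. The mean log2 fold changes were -0.10 (adjusted p = 0.679) and -0.39 (interval -0.85 to 0.06, adjusted p = 0.219 from limma).

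**Figure D2:**
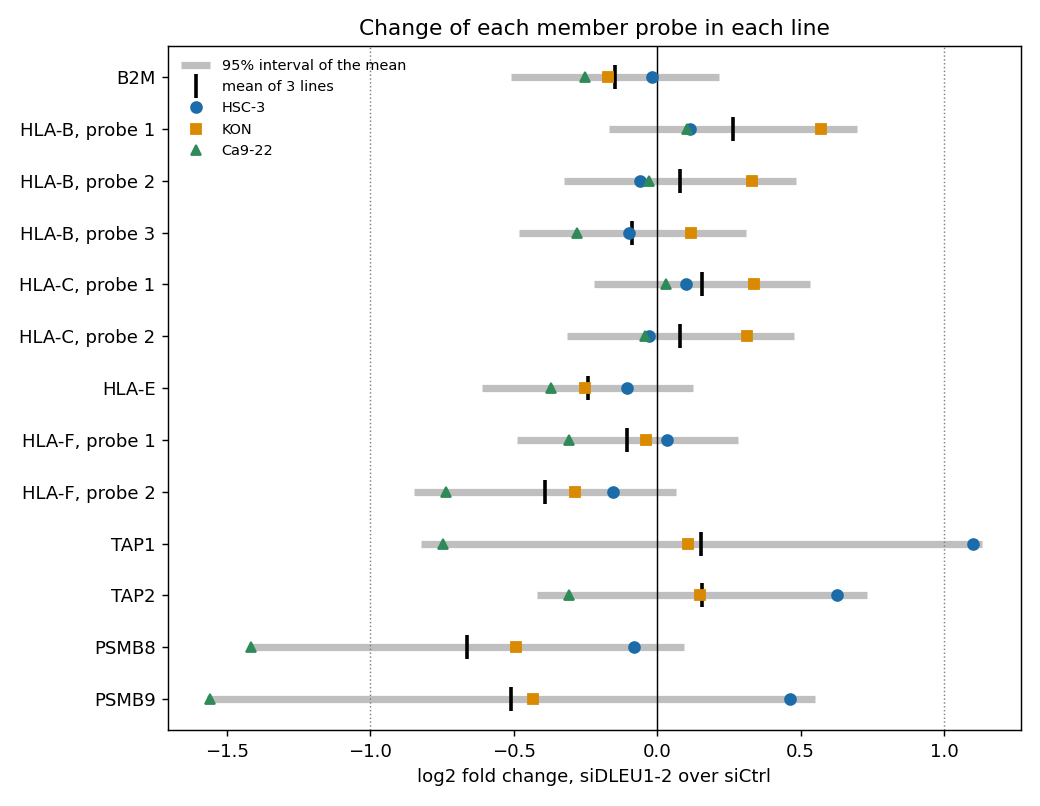
Log2 fold change of siDLEU1-2 over siCtrl (x axis) for the 13 member probes tested (y axis), with a point for each cell line, a black bar for the mean of the 3 lines, a gray band for the 95% interval of that mean from limma, and dotted lines at 2-fold. Every band takes in 0, and the points spread furthest for PSMB9, TAP1 and PSMB8, from -1.56 in Ca9-22 to 1.10 in HSC-3.

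TAP1, one of the chains of the peptide transporter, changed in opposite directions between lines. Its probe at chr6:32813210-32813269 (minus strand, NM_000593) had a level of 6.33 (siCtrl) and 7.43 (siDLEU1-2) in HSC-3, with 5.56 and 5.67 in KON, and with 5.55 and 4.80 in Ca9-22. The signal was 1.68-fold lower in Ca9-22, 1.08-fold higher in KON and 2.14-fold higher in HSC-3. With siCtrl the Ca9-22 level was close to that of KON (Ca9-22 minus KON, -0.01), and with siDLEU1-2 it was below it (-0.87). The mean log2 fold change was 0.15 ± 0.92 (SD over 3 lines, interval -0.82 to 1.13, adjusted p = 0.822 from limma), and without HSC-3 it was -0.32, so that this line set its direction.

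TAP2, the partner chain, was measured at chr6:32793222-32793281 (minus strand, NM_000544), with levels of 3.17 (siCtrl) and 3.80 (siDLEU1-2) in HSC-3, with 3.73 and 3.88 in KON, and with 2.42 and 2.11 in Ca9-22. It took the same order of lines as TAP1 over a narrower span, 1.55-fold higher in HSC-3, 1.11-fold higher in KON and 1.24-fold lower in Ca9-22. The mean was 0.16 ± 0.47 (SD over 3 lines, interval -0.42 to 0.73, adjusted p = 0.677 from limma), and it was -0.078 without HSC-3.

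The immunoproteasome genes were lowest relative to siCtrl in Ca9-22. PSMB9 encodes the subunit beta1i and PSMB8 the subunit beta5i. Their probes lie in coding sequence, at chr6:32823918-32823977 of hg19 for PSMB9 (plus strand, NM_002800) and between 32810023 and 32810490 on the minus strand of chromosome 6 for PSMB8 (NM_004159), a span of 468 bases that is longer than the 60-base probe. They are shown because these probes gave the lowest fold changes of any member.
PSMB9: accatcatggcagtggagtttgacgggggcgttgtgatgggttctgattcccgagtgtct
PSMB8: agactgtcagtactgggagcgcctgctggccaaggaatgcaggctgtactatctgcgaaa

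The PSMB9 level was 5.99 (siCtrl) and 6.46 (siDLEU1-2) in HSC-3, with 5.49 and 5.06 in KON, and with 4.76 and 3.20 in Ca9-22. It was 1.38-fold higher in HSC-3, 1.35-fold lower in KON and 2.95-fold lower in Ca9-22. The mean log2 fold change was -0.51 ± 1.01 (SD over 3 lines, interval -1.57 to 0.55, adjusted p = 0.458 from limma), and without Ca9-22 it was 0.015. PSMB8 was lower in every line, with levels of 4.15 (siCtrl) and 4.06 (siDLEU1-2) in HSC-3, with 3.72 and 3.23 in KON, and with 3.59 and 2.17 in Ca9-22. The falls were 1.06-fold, 1.41-fold and 2.67-fold, and the mean was -0.66 ± 0.68 (SD over 3 lines, interval -1.42 to 0.09, adjusted p = 0.213 from limma). It was -0.29 without Ca9-22 and -0.95 without HSC-3.

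A single member, TAP1, was over 2-fold higher in HSC-3, where 7.53% of all probes kept were. PSMB8 and PSMB9 were over 2-fold lower in Ca9-22, where 6.46% of all probes kept were. By direction alone, 7 of 13 member probes were lower in HSC-3, 6 of 13 in KON, and 11 of 13 in Ca9-22, beside 50.1%, 48.6% and 50.6% of all probes kept. With quantile normalization 10 of 13 were lower in HSC-3 and 12 of 13 in Ca9-22, beside 54.5% and 51.3% of all probes kept, so that the count in HSC-3 depended on the scaling. The 13 probes had a median log2 fold change of -0.31 in Ca9-22, -0.02 in HSC-3 and 0.11 in KON, and that of all probes kept was within 0.02 of 0 in each line. The order of the fold changes was the same for 8 of the 13 probes, highest in HSC-3 and lowest in Ca9-22, an order that 15.5% of all probes kept had. They are the probes of B2M, HLA-E, HLA-F, TAP1, TAP2, PSMB8 and PSMB9, while every HLA-B and HLA-C probe was highest in KON. This order was noticed after the values were seen, and with 1 array per line and siRNA the difference between lines in the response was not tested.

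Between the cell lines themselves, over both siRNAs, the member levels differed clearly. HSC-3 had the highest levels of most members. In KON, 9 of 13 probes were called lower than in HSC-3 by limma (19.2% of all probes kept were), namely all probes of B2M and the heavy chains, and the other 4 did not pass. The median of the 13 differences was -1.13 on the log2 scale, against -0.07 for all probes kept. The largest was that of the third HLA-B probe, 5.58-fold lower in KON (log2 difference -2.48 ± 0.18 SE, adjusted p = 0.00588 from limma), and the smallest called was B2M, 1.59-fold lower (-0.67 ± 0.17 SE, adjusted p = 0.0385). HLA-F was 3.07-fold lower (-1.62 ± 0.18 SE, adjusted p = 0.00765) and HLA-E 2.19-fold lower (-1.13 ± 0.17 SE, adjusted p = 0.0127 from limma). For these genes both KON arrays lay below both HSC-3 arrays.

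The HLA-B probes gave unlike sizes for this difference. The second HLA-B probe was 3.46-fold lower in KON and the leading one, which differs from it by the base shown above and by an offset of 10 bases, was 1.92-fold lower. The HLA-C probes gave 1.97-fold and 2.26-fold. All 5 were called lower in KON, but 3 of them partly read the same sequence and do not count as separate measurements. The third HLA-B probe and the second HLA-C probe, which do not overlap the others, had the same direction. The size depended on the probe, and the part of sequence differences between the lines in it was not tested.

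In Ca9-22, 7 of 13 probes were called lower than in HSC-3 (21.3% of all probes kept were). They were PSMB9 (4.75-fold, log2 difference -2.25 ± 0.50 SE, adjusted p = 0.0283 from limma), TAP1 (3.26-fold, adjusted p = 0.0445), TAP2 (2.33-fold, adjusted p = 0.0283), HLA-E (1.56-fold, adjusted p = 0.0440) and probes of HLA-B and HLA-C. B2M and HLA-F lay close to their HSC-3 levels, with log2 differences of 0.20 ± 0.17 (SE, adjusted p = 0.380) and -0.16 ± 0.18 (SE, adjusted p = 0.497 from limma). The number of calls depended on the setting, with 4 of 13 under a percentile over probes well above background on all arrays and 3 of 13 without the KON arrays. It was 9 of 13 with median centering, normexp, the stricter filter or a floor set under dim signals.

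The gaps for PSMB9, TAP1 and TAP2 rest partly on the siDLEU1-2 arrays. After siCtrl alone, Ca9-22 lay below HSC-3 by a log2 difference of -1.24 for PSMB9, -0.78 for TAP1 and -0.75 for TAP2, and after siDLEU1-2 by -3.26, -2.63 and -1.69. For HLA-B the leading probe gave -0.71 and -0.72 with these siRNAs, about the same gap. Each of these gaps rests on 1 array per line and has no error.

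Against KON, Ca9-22 had 1 probe called lower (18.8% of all probes kept were) and 5 called higher (14.4%). The lower one was TAP2, 2.90-fold (adjusted p = 0.0179 from limma). The higher ones were B2M, 1.83-fold (adjusted p = 0.0222), both HLA-F probes, 2.74-fold and 2.68-fold (adjusted p = 0.00992 and 0.0137 from limma), the third HLA-B probe and the second HLA-C probe. Over both siRNAs, the levels of every HLA-B, HLA-C and HLA-E probe stood in the order HSC-3, Ca9-22, KON, and the third HLA-B probe alone separated all 3 lines. Ca9-22 and KON were not separated on HLA-E, on the leading and second HLA-B probes or on the leading HLA-C probe, and after siDLEU1-2 the leading HLA-B probe had about the same level in both (Ca9-22 minus KON, -0.0063). HSC-3 and Ca9-22 were not separated on the leading HLA-B probe (adjusted p = 0.0502 from limma) or the second HLA-C probe. For B2M and HLA-F, HSC-3 and Ca9-22 were not separated and KON was lowest. For TAP2, HSC-3 and KON were not separated and Ca9-22 was lowest.

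**Figure D3:**
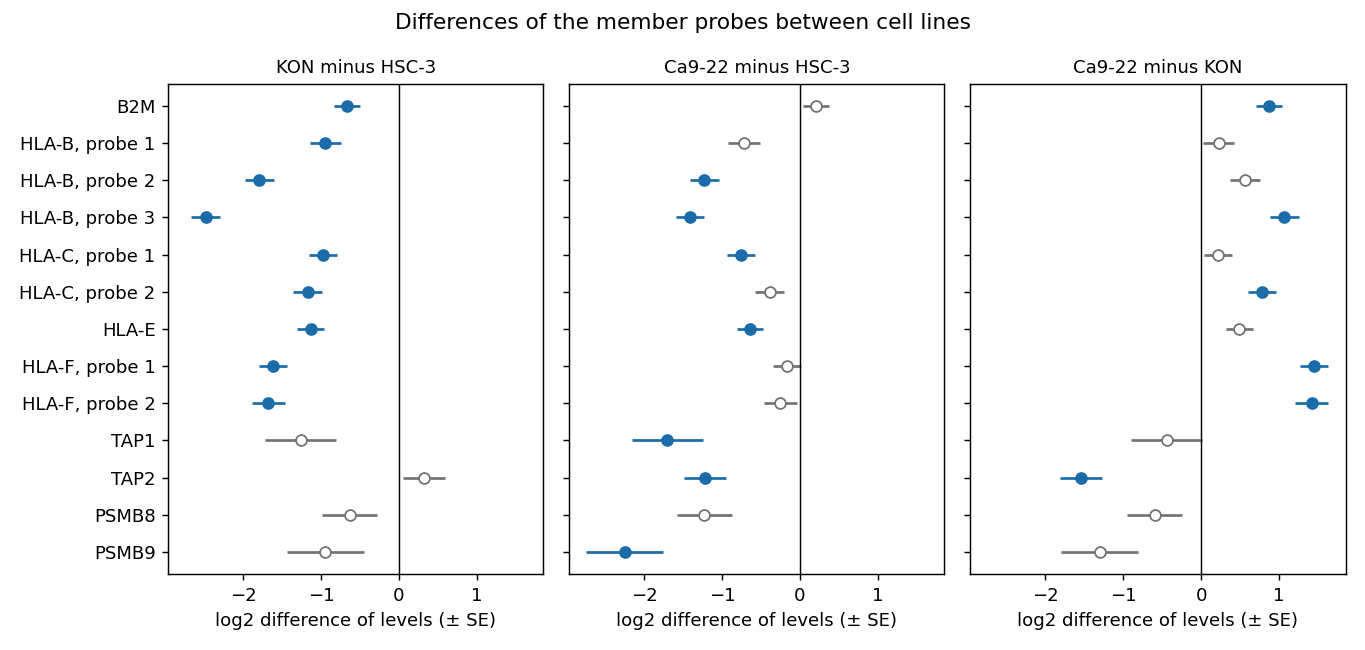
Difference of the log2 level between cell lines over both siRNAs (x axis, ± SE from limma) for the 13 member probes (y axis), with filled blue points for differences called at an adjusted p below 0.05 and open gray points for the others. All 9 heavy chain and B2M probes are filled and below 0 for KON minus HSC-3, and TAP2 alone is filled below 0 for Ca9-22 minus KON.

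The upstream sequences of the members were read from RefSeq (GRCh38.p14), in which 8 of the 9 genes matched by symbol, with 10 promoters. The letters GAAA repeated after a gap of any 2 bases, which interferon response elements contain, were searched on both strands in the 250 bases before each start. They were found in 4 of the 10 member promoters, 1 each of B2M, HLA-F, TAP1 and TAP2, and in 3.02% of all 35116 promoters. The letters CCAAT, the box bound by NF-Y, were found on either strand in 6 of the 10 and in 32.01% of all promoters, with no overlap between matches of these motifs in the member promoters. The matches of the former are shown with the matched letters in capitals, each with 10 bases on either side, because interferon acts on class I genes through such elements. Those of HLA-F and TAP1 are on the strand opposite to the gene and read TTTC, while the strand given is that of the gene. Within the 250 bases searched, PSMB8, PSMB9, HLA-B and HLA-C had no match of the repeated GAAA, and HLA-E was not among the promoters read. The TAP1 matches lie between the TAP1 start at 32853704 and the PSMB9 start, outside the bases searched for PSMB9.
B2M, 144 bases before the start, chr15:44711363-44711392, plus strand: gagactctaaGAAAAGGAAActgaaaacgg
B2M, 138 bases before, chr15:44711369-44711398, plus strand: ctaagaaaagGAAACTGAAAacgggaaagt
HLA-F, 156 bases before, chr6:29723268-29723297, plus strand: ctccccagagTTTCTCTTTCtctcccaacc
TAP1, 134 bases before, chr6:32853819-32853848, minus strand: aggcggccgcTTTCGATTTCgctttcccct
TAP1, 128 bases before, chr6:32853813-32853842, minus strand: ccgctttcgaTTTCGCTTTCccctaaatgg
TAP2, 58 bases before, chr6:32838778-32838807, minus strand: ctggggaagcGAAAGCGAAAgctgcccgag

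These are matches of letters, and no binding was measured. TAP1 and PSMB9 are neighbors transcribed away from each other, with starts 488 bases apart, at 32853704 and 32854192 on chromosome 6 of GRCh38.p14, while a second TAP1 start at 32852761 lies 1431 bases from that of PSMB9. They gave the widest differences in fold change between HSC-3 and Ca9-22 of the leading probes.

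Further genes were read from 5 lists of 49 genes in all, also chosen with earlier results known. They hold genes of peptide loading, proteasome genes and regulators, as well as class I-like genes with NKG2D ligands and class II genes, not all of which belong to the class I pathway itself. Of their 53 probes kept, limma called 13 (24.5%, against 8.5% of all probes kept), 3 higher and 10 lower after siDLEU1-2. Of the 13 probes, 6 are of regulators, 5 of class I-like genes or NKG2D ligands, 1 of peptide loading and 1 of the proteasome. The marker genes CDH1, COL1A1, TP63, KRT6A and SFN were called in the same comparison, and their part in these calls was not tested. These calls belong to 12 genes, and 0 of the genes was called with any one of the cell lines left out, without the cell line as a block, or without the filter on dim signal.

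**Figure D4:**
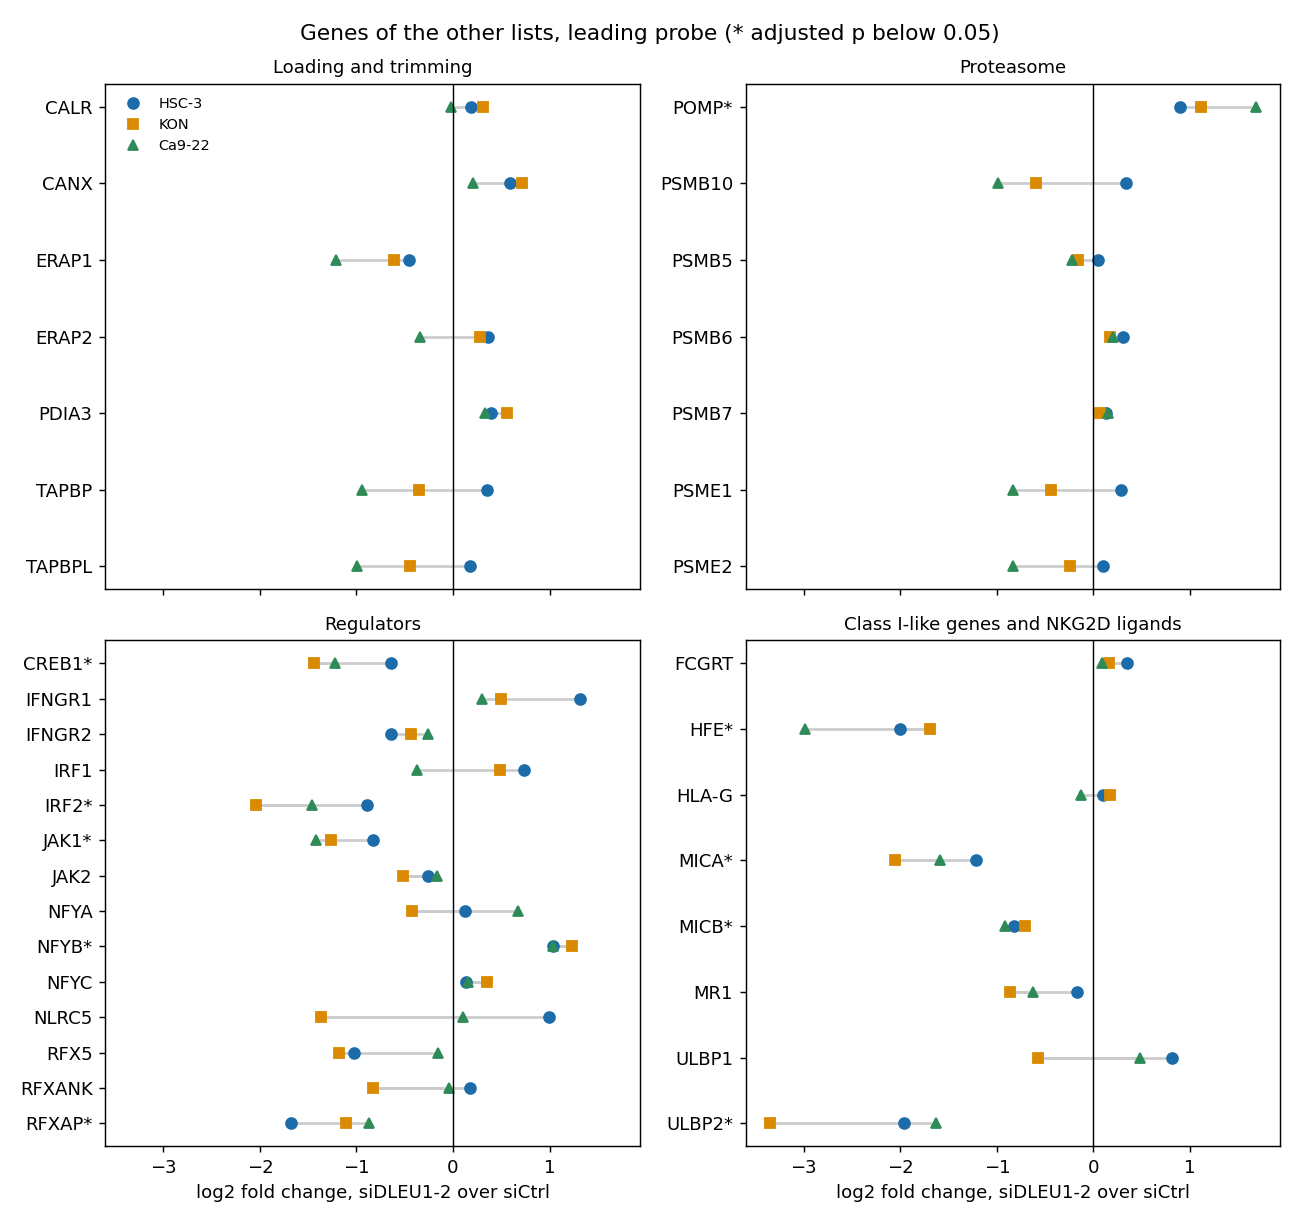
Log2 fold change of siDLEU1-2 over siCtrl (x axis) in each cell line for the leading probe of the genes of the other lists (y axis), in 4 panels by list, with an asterisk where limma's adjusted p was below 0.05. TAPBP, TAPBPL, PSMB10, PSME1 and PSME2 run from HSC-3 above 0 to Ca9-22 below 0, and HFE, MICA, MICB and ULBP2 lie below 0 in every line.

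Of 7 genes of peptide loading and trimming, 1 had a called probe. It was PDIA3, the oxidoreductase of the loading complex, on its second probe (mean log2 fold change 0.70, adjusted p = 0.0485 from limma), while its leading probe had a mean of 0.43 (adjusted p = 0.124). The PDIA3 call was lost with either other centering and with the mean of the gene's probes. Tapasin (TAPBP), which bridges TAP and the heavy chain, had log2 fold changes of 0.35, -0.36 and -0.95 in HSC-3, KON and Ca9-22 on its leading probe, and TAPBPL, its relative, 0.18, -0.45 and -1.0. Both had the order of TAP1 on these probes and were not called (adjusted p = 0.498 and 0.342 from limma), while another kept TAPBP probe was lowest in KON (0.23, -0.70 and -0.51). Of the 11 loading and trimming probes kept, 5 had this order, not all of different genes, beside 15.5% of all probes kept. The aminopeptidase gene ERAP1 was lower in each line, with -0.46, -0.61 and -1.21, and was not called (adjusted p = 0.0847 from limma).

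Of 7 proteasome genes, POMP, the assembly chaperone, was called higher, with log2 fold changes of 0.90, 1.12 and 1.69 in HSC-3, KON and Ca9-22 (mean 1.23, adjusted p = 0.0383 from limma). PSMB10, the third immunoproteasome subunit gene, had 0.33, -0.59 and -0.99, and the PA28 genes PSME1 and PSME2 had 0.28, -0.44 and -0.84, and 0.10, -0.24 and -0.83. None of these was called, and all had the order of PSMB9. The constitutive subunit gene PSMB5, which encodes the counterpart of the PSMB8 product, moved in the same order over a narrower span, by 0.05, -0.16 and -0.22. Of the 7 proteasome probes kept, 4 had this order, beside 15.5% of all probes kept.

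Of 15 regulator genes, 5 had a probe called lower and 1 higher. JAK1, the kinase shared by interferon receptors, had a mean log2 fold change of -1.17 (interval -1.63 to -0.71, adjusted p = 0.0330 from limma), IRF2, an antagonist of IRF1 on many promoters, -1.47 (adjusted p = 0.0426), RFXAP -1.22 (adjusted p = 0.0399) and CREB1 -1.10 (adjusted p = 0.0473). The IRF2 signal was not well above background after siDLEU1-2 in KON and Ca9-22, and its call was lost with normexp, with a floor set under dim signals and with the stricter filter. The CREB1 call was lost with quantile normalization. RFX5, which forms with RFXAP and RFXANK the complex on the X box of class I and class II promoters, was called lower on its second probe (-0.99, adjusted p = 0.0434) and not on its leading one (-0.79, adjusted p = 0.118 from limma), and the call was lost with the mean of its probes. RFXANK had log2 fold changes of 0.17, -0.83 and -0.04 in HSC-3, KON and Ca9-22 and was not called (adjusted p = 0.567 from limma). NFYB, a subunit of NF-Y, was called higher and was over 2-fold higher in each line (mean 1.10, adjusted p = 0.0278 from limma).

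IRF1, an activator of class I promoters, had log2 fold changes of 0.74, 0.49 and -0.37 in HSC-3, KON and Ca9-22 (adjusted p = 0.512) and NLRC5, on its leading probe, 1.0, -1.36 and 0.10 (adjusted p = 0.925 from limma). A second NLRC5 probe, below the filter because of KON, gave -0.38 in HSC-3 and -1.09 in Ca9-22, where it was well above background, so that the NLRC5 probes differed in direction in these lines. IRF1 took the order of lines that TAP1 had, and the leading NLRC5 probe did not.

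Of 10 class I-like genes and NKG2D ligands, 8 had a probe kept, and 4 of these were called, all lower. MICA and MICB encode stress-induced ligands of the activating NK receptor NKG2D, and ULBP2 another. MICA had levels of 3.36 (siCtrl) and 2.14 (siDLEU1-2) in HSC-3, with 4.60 and 2.54 in KON, and with 4.29 and 2.70 in Ca9-22, a fall in every line by 2.32-fold, 4.17-fold and 3.01-fold (mean log2 change -1.62 ± 0.43, SD over 3 lines, adjusted p = 0.0291 from limma). ULBP2 fell by 3.90-fold, 10.2-fold and 3.1-fold (mean -2.32 ± 0.91, adjusted p = 0.0365) and MICB by 1.77-fold, 1.64-fold and 1.89-fold (mean -0.82 ± 0.10, adjusted p = 0.0393 from limma). The second MICA probe was called as well (mean -1.47, adjusted p = 0.0334), and the second MICB probe was not (mean -1.24, adjusted p = 0.0654 from limma).

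HFE, which regulates iron uptake and does not present peptide, had a mean of -2.23 ± 0.68 (SD over 3 lines, adjusted p = 0.0295 from limma), with its siDLEU1-2 signal well above background in HSC-3 alone of the lines, and the stricter filter removed it. The other 4 genes kept were not called. HLA-G had log2 fold changes of 0.09, 0.17 and -0.13 (adjusted p = 0.874 from limma). FCGRT, the neonatal Fc receptor, had a mean of 0.20 (adjusted p = 0.400), ULBP1, another NKG2D ligand gene, 0.24 (adjusted p = 0.638) and MR1, which presents vitamin metabolites to T cells, -0.55 (adjusted p = 0.135 from limma). HFE, MICA and ULBP2 were over 2-fold lower in all 3 lines, and the median log2 fold change of the 11 class I-like probes kept was -0.92 in Ca9-22, -0.87 in KON and -0.82 in HSC-3.

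MHC class II genes were mostly dim. Of 10 genes, HLA-DRB1, HLA-DPA1 and HLA-DMA had a probe kept, and none was called, with mean log2 fold changes of -0.05, -0.16 and 0.17 on their leading probes. The transactivator gene CIITA was well above background in HSC-3 only, on 1 of 2 probes, where its level was 0.0 after siCtrl and -3.0 after siDLEU1-2. The 4 HLA-DQB1 probes were well above background in Ca9-22 only.

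Over the 6 arrays, the mean of the 9 leading probes, each centered on its own mean, was 0.48 (siCtrl) and 0.73 (siDLEU1-2) in HSC-3, with -0.26 and -0.28 in KON, and with -0.07 and -0.60 in Ca9-22. TAP1 followed this mean most closely (Pearson r = 0.95 over 6 arrays) and B2M least (r = 0.27), where each of them is part of the mean. Outside the pathway lists, the genes with the most similar pattern over the 6 arrays were GBGT1 (r = 0.997), MAPK14 (r = 0.995), PRKCH (r = 0.994), LOC284379 (r = 0.993) and ACOT7 (r = 0.992). They were picked as the highest among all probes kept, and the 6 points share 3 lines, so these values are descriptions.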

How the data were processed

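RNA from 6 samples (3 OSCC lines, each with siCtrl and siDLEU1-2) was measured on 1-color Agilent arrays, all on 1 slide and scanned at once. The authors deposited the output of Feature Extraction 10.7.3.1 (version per the labels), in which each spot has an intensity, background-subtracted by the software, linear and not normalized between arrays. Their deposited series table holds the same intensity, differing by at most 0.497%. Probe coordinates are those of the files (hg19). From the log2 of the processed signal, the 75th percentile over an array's probes was subtracted. Control spots and those marked as outliers were dropped, and repeated spots were replaced by their mean. A probe passed on an array when 50% or more of its spots were well above background. Passing on 1 or both of the 2 arrays in every line was required, which left 19956 of 50599 probes, and 55 probes without a value on some array were not tested. None of the spots was saturated. Of the probes, 43.0% to 45.7% passed per array, and the number of arrays limits the precision.

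With limma 3.58.1 (R 4.3.3), a linear model was fitted with siRNA and cell line as terms, with Benjamini-Hochberg adjustment over all probes kept. The line pairs the arrays, whose deviations from the siRNA means correlated at 0.83, 0.81 and 0.82 within HSC-3, KON and Ca9-22. Differences between lines come from the same fit, so their error holds unequal responses to the siRNA, with 2 residual degrees of freedom before moderation. The fit was tested on simulated data for 19956 probes, 200 of which were given a log2 change of 1.5. For the siRNA it recovered 185 of the 200 and called 16 others, and for KON against HSC-3 it recovered 128 and called 13 others.

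All member probes are reported. From the other lists, genes with a called probe or over 2-fold in all lines are named, with a few others. One gene of the regulator list enters the counts and is not reported here. The members and lists were chosen with earlier results of these data known. Alternatives were other centering, quantile normalization, normexp (offset 50), the authors' series table, other filters, dim values raised to the detection floor, the methods' t-test, no block, the mean of a gene's probes, a threshold of 3-fold, and each line left out. A block for slide was not run, since there is 1 slide. Promoter sequences and gene starts are those of RefSeq (GRCh38.p14).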

Additional observations from a re-analysis of the deposited data

Results flagged for a closer look

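The fold changes of PSMB9 and TAP1 ran in opposite directions in HSC-3 and Ca9-22, more than 2-fold apart. For PSMB9, the log2 fold change was 0.46 in HSC-3 and -1.56 in Ca9-22, a difference of 2.02, and KON lay between them at -0.43. For TAP1, it was 1.10 and -0.75, a difference of 1.85, with KON at 0.11. With a single array for each siRNA in a line, these differences were not tested. Under the alternatives, the PSMB9 value ranged from 0.31 to 0.46 in HSC-3 and from -1.68 to -1.52 in Ca9-22, and the TAP1 value from 0.91 to 1.11 and from -0.82 to -0.73.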

How the results depend on the processing

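For the siRNA, 0 member probes were called and 0 were over the fold threshold in all lines under every alternative run, with any line left out as well. With normexp, 2 member probes had an unadjusted p below 0.05, and without HSC-3 also 2. The mean log2 fold change of a member reversed in 3 cases, TAP1 (-0.32) and TAP2 (-0.078) without HSC-3 and PSMB9 (0.015) without Ca9-22. The filters, the detection floor, the fit without the block and the methods' t-test leave these means as they are and could not reverse them. In single lines (HSC-3 and Ca9-22 were compared), the directions of HLA-B, HLA-C and HLA-F turned where the change was 0.11 or less on the log2 scale. For HLA-B the value became -0.013 (quantile normalization) and -0.015 (mean of its probes) in HSC-3 and -0.068 (that mean) in Ca9-22, and those of HLA-C and HLA-F turned with these or other scalings. The 12 genes called in the other lists fell to 0 without a filter, without the cell line as a block (6 with an unadjusted p below 0.05), by the methods' t-test after adjustment (4 before), and with any line left out (0 in each case, 16 to 21 before adjustment), where 2 lines remain. Over all probes, the calls likewise went from 1697 to 0 without a filter, without the block, by the methods' t-test, and without HSC-3 or KON. Without the block, 0 member probes were called. Probes called between Ca9-22 and HSC-3 went from 7 to 4 with the percentile over probes well above background on all arrays, to 2 with no filter and to 3 without KON. They rose to 9 with median centering, normexp, the stricter filter or the detection floor. Those between Ca9-22 and KON rose from 6 to 8 with the percentile just named, quantile normalization or normexp. They fell to 3 with no filter and to 3 with the mean of a gene's probes, which leaves 9 values in place of 13. Those between KON and HSC-3 went from 9 to 5 with that mean. Apart from the fewer values, the cause was not tested.

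The fold changes of TAP1, PSMB8 and PSMB9 had SDs of 0.92, 0.68 and 1.01 over the lines, against 0.12 to 0.31 for the heavy chain and B2M probes, so their intervals are wide, and a mean change of 2-fold lies within them.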
